A study of Aspergillus nidulans with 4 samples.

Results

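The ubiquitin and proteasome genes of *Aspergillus nidulans*, a filamentous fungus used as a genetic model, were compared between a *pkaA* deletion strain (Δ*pkaA*, FGSC A1358) and its isogenic parent (WT, FGSC A1405). They were taken as the genes whose function text in the deposited table holds the word proteasome or ubiquitin and not ribosomal, ubiquinone or ubiquinol. AN3959 and AN4170 were left out by name. This gave 130 of the 10930 genes listed. The *pkaA* gene encodes a catalytic subunit of the cyclic AMP-dependent protein kinase (PKA). RNA was taken from mycelium of both strains grown with shaking at 250 rpm and 28°C in YGV, a rich liquid medium with 2% glucose and 0.5% yeast extract, for about 20 h of main culture. There were 2 biological samples of Δ*pkaA* and 2 of the WT, 4 in all. Each genotype was a single strain, and no complemented strain was analysed here.

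Ubiquitin is a small protein that cells attach to other proteins as a mark. An activating enzyme (E1) charges it, a conjugating enzyme (E2) carries it, a ligase (E3) directs it to a substrate, and deubiquitinating enzymes remove it. Chains of ubiquitin send many proteins to the proteasome, a barrel-shaped protease (the 20S core) capped by a regulatory particle (19S) that unfolds the substrate. Other ubiquitin marks direct membrane proteins to the vacuole or act in DNA repair and in peroxisomes.

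The values are the authors' mean normalized count per strain, that is, the reads of a gene scaled for library size and averaged over the 2 libraries of that strain. Summed over all genes they came to 2.93e+07 in Δ*pkaA* and 3.10e+07 in the WT. Whole reads per library were worked back from the decimals of the means where a single pair of whole numbers gives the mean, which was the case for 7818 of 10361 means above 0 in Δ*pkaA* and 8722 of 10381 in the WT. Which of them is which labelled replicate is not known, so they are called library 1 and library 2 of a strain. The p-values set the difference between the strains against a spread estimated from these libraries, partly shared over all genes tested. As a check of the labels, *pkaA* (AN6305) had 77.5 and 70.2 normalized counts in the 2 Δ*pkaA* libraries, against 1811 and 1927 in the 2 WT libraries. Its level was far below both WT libraries in both Δ*pkaA* libraries, with a log2 difference of -4.64 ± 0.13 (SE, limma, adjusted p = 1.40e-06).

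The ubiquitin and proteasome genes differed little between the strains as a set, and a few of them differed strongly. For 129 of the 130 genes the 2 means averaged 10 or more. Their median log2 ratio of Δ*pkaA* over WT was -0.02, beside -0.00063 over all 9455 genes at that level. The median size of the log2 ratio, without its sign, was 0.26 among the ubiquitin and proteasome genes and 0.60 over all genes. A log2 ratio between -0.5 and 0.5 was found for 99 of the 129 (76.7%), against 44.3% of all genes. These genes were well expressed, with a median average of 3231 normalized counts against 872 for all genes listed. Among the 3032 genes with an average of 2000 to 20000, the median size of the log2 ratio was 0.46, and 52.6% lay between -0.5 and 0.5. No test was made of this narrower spread.

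Means at least 2-fold apart were found for 5 ubiquitin and proteasome genes that were higher in Δ*pkaA* and 9 that were lower. Over all genes, 16.3% were higher and 16.4% were lower by this measure. These ratios of 2 means are descriptions without a test. The 9 lower genes included the polyubiquitin gene, an E2, a ligase-complex gene, a deubiquitinase and several proteasome-linked genes, and the 5 higher genes included *creB*. AN2000 (2.01-fold lower) and AN2240 (2.00-fold higher) lay just inside the limit, and AN10877, with a log2 ratio of -0.95, lay just outside it.

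**Figure D1:**
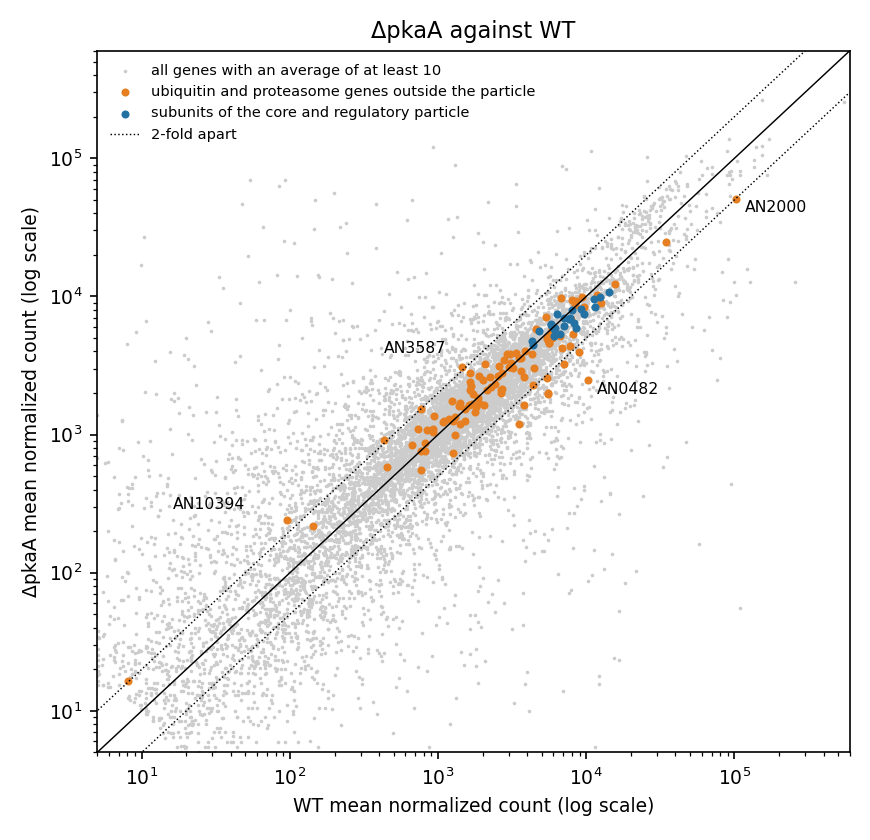
Mean normalized count of each gene in Δ*pkaA* (vertical, log scale) against the WT (horizontal, log scale), with axes from 5 upward. Grey points are all genes with an average of at least 10, blue points the 24 subunits of the proteasome core and regulatory particle, orange points the other ubiquitin and proteasome genes, the solid line marks equal means and dotted lines mark 2-fold. The blue points lie along the line of equal means, and AN2000 and AN0482 stand below the orange cloud at high levels.

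There were 2 tests on libraries. The first was limma on log2(value + 1), for genes averaging 10 or more whose reads could be recovered from both means, with Benjamini-Hochberg adjustment over all 6666 genes tested. It covered 50 of the 130 genes and called 13 higher and 10 lower in Δ*pkaA* at an adjusted p below 0.05, while it called 32.0% of all genes tested higher and 32.0% lower. Recovery stopped at a mean of 2500 in Δ*pkaA* and 4000 in the WT, so this test left out abundant genes, and near these limits it kept genes lower in Δ*pkaA* more often than genes higher. Centring each library on its median over the genes tested shifted all differences by 0.12 on the log2 scale and gave 9 higher and 11 lower calls in place of 13 and 10, so that 45.0% of the calls were higher in place of 56.5%.

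The second test, added after the data were seen, covered the abundant genes as well. For each gene, every pair of whole read numbers that gives its means was tried with the variance estimates of the first test, and the pair with the largest p was kept. The adjusted p over all 9405 genes is therefore an upper limit for the libraries as recovered. On this least favourable pair, 19 of 129 ubiquitin and proteasome genes were higher in Δ*pkaA* and 25 were lower, while 31.2% of all genes were higher and 29.8% were lower. The other 85 did not pass, which does not show that their levels were equal. Most of the 44 that passed were lost in at least 1 of the runs with a library left out. How many of all genes were lost in this way was not counted. Without library 1 of Δ*pkaA* the counts were 10 higher and 11 lower, and without library 2 of Δ*pkaA* they were again 10 and 11. Over all genes these counts were 2147 and 2056 without library 1 and 2175 and 2083 without library 2, against 2935 and 2804 with all libraries. In the text below, an adjusted p is from this second test unless the first is named, and a log2 difference with its SE is that of the least favourable pair. Library values of genes above the limits of the first test come from pairs within an allowed difference between libraries. This could favour libraries that differ little.

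**Figure D2:**
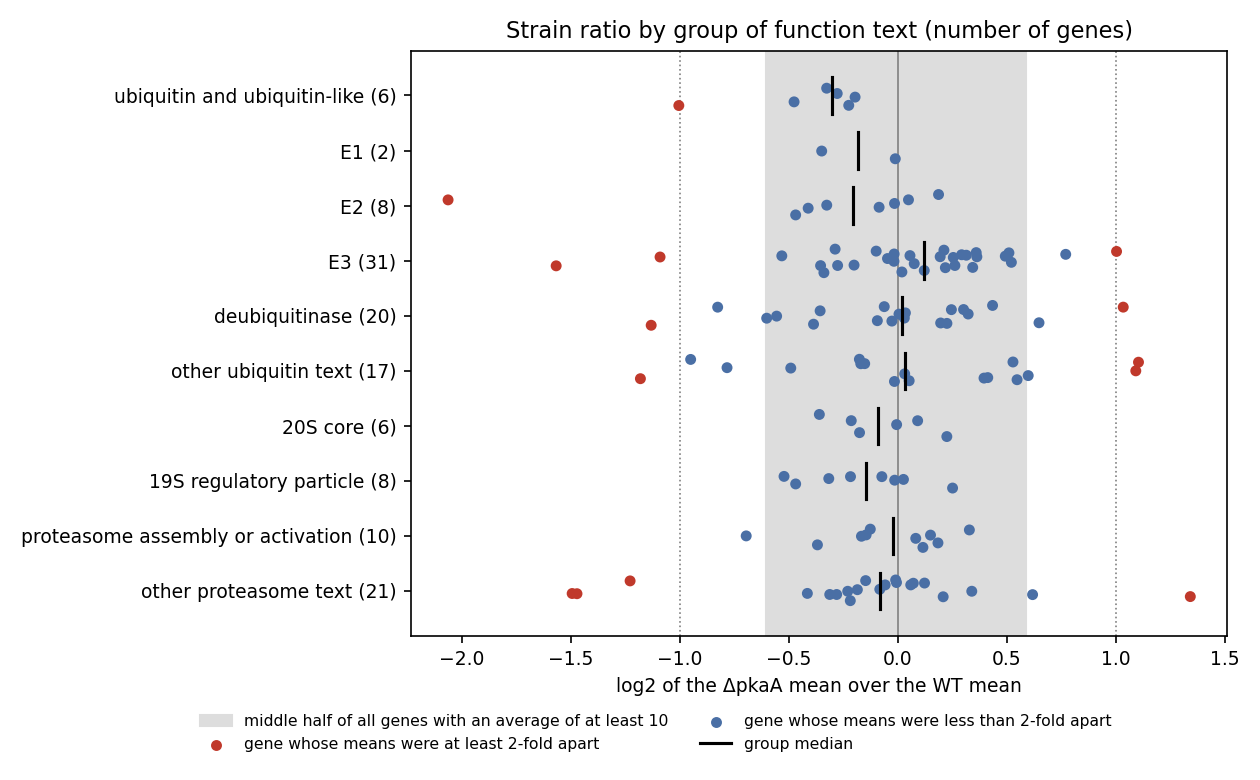
Log2 of the Δ*pkaA* mean over the WT mean (horizontal) for each of the 129 ubiquitin and proteasome genes with an average of at least 10, in rows by group of function text, with the number of genes in parentheses. Black bars are group medians, red points are genes with means at least 2-fold apart, and the grey band runs from the lower to the upper quartile of all genes. No gene of the 20S core or 19S regulatory particle rows is red, and 9 red points lie on the lower side and 5 on the higher side.

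The polyubiquitin gene AN2000 was the most abundant of the 130 genes. Its product is a head-to-tail chain of ubiquitin units that is cut into single ubiquitins. Its mean was 50810 normalized counts in Δ*pkaA*, against 101912 in the WT. At this level several pairs of reads give the same mean, and the libraries could lie between 49600 and 52020 in Δ*pkaA* and between 71344 and 132479 in the WT. In every such pair both Δ*pkaA* libraries were below both WT libraries. The least favourable pair gave a log2 difference of -0.94 ± 0.26 (SE, adjusted p = 0.0156), but the adjusted p was 0.103 without library 1 of Δ*pkaA* and 0.109 without library 2. AN2000 made up 9.01% of the summed means of the 130 genes in Δ*pkaA* and 14.8% in the WT. The log2 ratio of these sums was -0.29 with AN2000 and -0.19 without it.

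Ubiquitin is also made from genes that fuse it to a ribosomal protein, which the word ribosomal kept out of the 130. One of them, AN4872, had a mean of 78872 in Δ*pkaA*, against 43183 in the WT, a log2 difference of 0.90 ± 0.25 (SE, adjusted p = 0.0178). Its direction was the opposite of that of AN2000. Ubiquitin-coding stretches are nearly identical between genes, so that reads could have been shared or split between them in the authors' counting, and how this touched either value was not tested. AN2000 lies next to another of the 130 genes, AN10251, on chromosome VII in the RefSeq order of genes, with 203 bases between them in the authors' table. AN10251, whose text gives ubiquitin binding and binding of nuclear localization sequences, had 688 and 779.9 normalized counts in the Δ*pkaA* libraries, against 1241 and 1286 in the WT libraries. It was lower in Δ*pkaA* by a log2 difference of -0.78 ± 0.11 (SE, limma on recovered libraries, adjusted p = 0.000734). The other members of the group of ubiquitin and ubiquitin-like genes were also at lower means in Δ*pkaA*. All 6 had log2 ratios below 0, with a median of -0.30, and 3 of the 6 passed the second test. Over all genes with an average of at least 10, 4726 had log2 ratios below 0 and 4715 above. The second test called 29.8% of all genes lower. AN4331, a polyubiquitin-binding gene with texts on DNA repair, had 552 and 549.8 normalized counts in Δ*pkaA*, against 799 and 733 in the WT (log2 difference -0.47 ± 0.11, SE, adjusted p = 0.00894, but 0.0542 without library 1 of Δ*pkaA* and 0.0554 without library 2). The third, *ddiA* (AN6741), had means of 2888 in Δ*pkaA* and 3622 in the WT (adjusted p = 0.0231). Its call was lost without either library of Δ*pkaA* or library 2 of the WT. The SUMO gene *sumO* (AN1191), which encodes a ubiquitin-like modifier, had means of 5019.7 in Δ*pkaA* and 5868 in the WT and did not pass (adjusted p = 0.175). AN5451, a polyubiquitin-binding gene, had the log2 ratio nearest to 0 in the group, at -0.20 (adjusted p = 0.749).

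Neither of the 2 E1 genes passed limma. In the second test 0 of the 2 had an unadjusted p below 0.05, against 6114 of 9405 over all genes. *ubaA* (AN10266), the main ubiquitin-activating enzyme by its level, had means of 12356 in Δ*pkaA* and 15741 in the WT (adjusted p = 0.393). AN2416 had 1322 and 1182 normalized counts in the Δ*pkaA* libraries, against 1240 and 1285 in the WT libraries, and the groups overlapped (limma, log2 difference -0.01 ± 0.11, SE, adjusted p = 0.920).

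The E2 group held 8 genes with the word conjugating in their text, and an E2 without that word would be outside it. In Δ*pkaA*, 4 of these 8 were lower, none was higher and 4 did not pass. The count does not cover *pex4* (AN10994), which the words of its text put in the E3 group. It was called higher in Δ*pkaA*, with a log2 ratio of 0.36, as given with that group below. Their median log2 ratio was -0.21, while 31.2% of all genes were higher and 29.8% were lower. An unadjusted p below 0.05 was also found for 4 of the 8, against 6114 of 9405 over all genes. Of the 4 calls, only that of AN0482 held without either library of Δ*pkaA*. AN0482 had the largest fall of all 130 genes. Its normalized counts were 2402 and 2529.5 in Δ*pkaA*, against 9152 and 11435 in the WT, and 1 pair of reads gave each mean. Both Δ*pkaA* libraries were far below both WT libraries, with a log2 difference of -2.05 ± 0.13 (SE, adjusted p = 1.25e-05, and at most 0.00151 with any library left out). It was the only one of the 130 past a 4-fold limit. AN2761, the most abundant E2, had means of 24851 in Δ*pkaA* and 34391 in the WT (log2 difference -0.46 ± 0.15, SE, adjusted p = 0.0294), and this call was lost without either library of Δ*pkaA* or library 1 of the WT, with adjusted p up to 0.216. AN5495, whose text ties it to the anaphase-promoting complex, the ligase that drives cells through mitosis, had 1958 and 2023 normalized counts in Δ*pkaA*, against 2749 and 2545 in the WT (log2 difference -0.41 ± 0.10, SE, adjusted p = 0.00978, but 0.076 without library 1 of Δ*pkaA* and 0.057 without library 2). The fourth, AN5351, had 1633 and 1628 in Δ*pkaA*, against 2103 and 1986 in the WT (adjusted p = 0.0232), and its call was lost without either library of Δ*pkaA* or library 1 of the WT, with adjusted p up to 0.108. AN8258 had the highest ratio of the group, with 2140 and 1787 normalized counts in Δ*pkaA* and 1676 and 1775 in the WT, and did not pass (adjusted p = 0.227).

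The E3 group held 31 genes whose text has ligase, transferase, HECT, RING, cullin, F-box or anaphase, also within a longer word. It is therefore not limited to ligases. Its genes had calls in both directions. In Δ*pkaA*, 7 were higher, 6 were lower and 18 did not pass, with a median log2 ratio of 0.12. Both shares were below those of all genes (31.2% higher and 29.8% lower). AN1089 fell most. Its text gives binding of ubiquitin ligases and a role in ubiquitin-dependent endocytosis, and does not call it a ligase. It had 1169 and 1198 normalized counts in the Δ*pkaA* libraries, against 2693 and 4317 in the WT libraries. The WT libraries differed 1.60-fold from each other, the widest gap between WT libraries among the 50 genes with recovered reads, and both still lay above both Δ*pkaA* libraries (limma, log2 difference -1.53 ± 0.20, SE, adjusted p = 0.000529). Without library 2 of the WT, the higher one, the log2 ratio was -1.19. AN5906, of the ubiquitin ligase complex by its text, had 2466 and 2663 normalized counts in Δ*pkaA*, against 4982 and 5937 in the WT (log2 difference -1.09 ± 0.12, SE, adjusted p = 0.000205).

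The largest rise in the E3 group was that of AN2240, whose orthologs are mannosyltransferases of GPI anchor synthesis with a role in ER-associated degradation. It had 1534 and 1519 normalized counts in the Δ*pkaA* libraries, against 747 and 778 in the WT libraries. The groups were well apart and tight (limma, log2 difference 1.00 ± 0.10, SE, adjusted p = 0.00013). AN0770, of the Dsc E3 ligase of the endoplasmic reticulum and Golgi membranes, had 2757 and 2815 normalized counts in Δ*pkaA*, against 1627 and 1643 in the WT (log2 difference 0.77 ± 0.10, SE, adjusted p = 0.00037). The gene *dscA* (AN1075), which encodes another part of the Dsc ligase, had 1539 and 1756 in Δ*pkaA* and 1530 and 1724 in the WT, and these groups overlapped (adjusted p = 0.910). The HECT ligase AN1339, the most abundant gene of the group, had means of 8420 in Δ*pkaA* and 9679 in the WT (adjusted p = 0.568).

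A further 3 genes of the group are given here, picked with their values known. The group follows words in the text, so a place in it does not make *pex4* a ligase. The predicted ligase AN10008 had 2623 and 2709 normalized counts in Δ*pkaA*, against 1807 and 1940 in the WT (adjusted p = 0.0035). Of the genes whose text names import into the peroxisome matrix, *pex4* (AN10994) was higher in Δ*pkaA* at a mean of 1084, against 843 in the WT (adjusted p = 0.0302, but 0.183 without library 1 of Δ*pkaA* and 0.0655 without library 1 of the WT). The call of *pex4* was also lost when each library was centred on its median. *pex10* (AN5681) did not pass, with a log2 ratio of 0.36 (adjusted p = 0.0962).

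**Figure D3:**
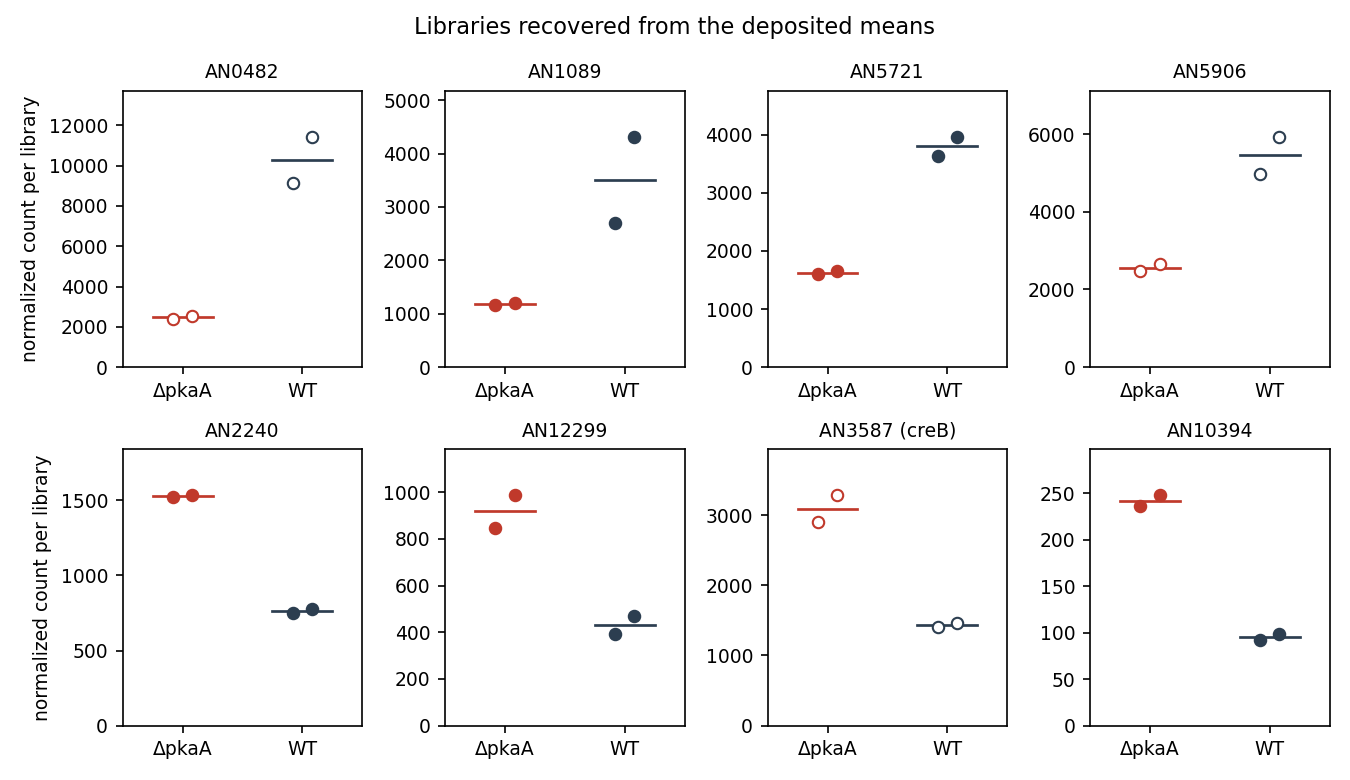
Normalized count per library (vertical, from 0) in Δ*pkaA* (red, left) and WT (dark, right) for 8 genes named in the text, with lines at the strain means. Filled points belong to genes in the first test, and open points to genes above its limits in at least 1 strain. For open points, a single pair of reads within the allowed difference between libraries gives each mean. In each of the 8 genes both libraries of one strain lie above both libraries of the other. AN0482, AN1089, AN5721 and AN5906 are lower and AN2240, AN12299, *creB* and AN10394 higher in Δ*pkaA*. The 8 were picked from genes with large ratios, with their values known, so their separation is not a result about the set.

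Of the 20 genes of the deubiquitinase group with an average of at least 10, 3 were higher in Δ*pkaA*, 4 were lower and 13 did not pass, while 31.2% of all genes were higher and 29.8% were lower. AN8074, a predicted ubiquitin hydrolase with a zinc-binding domain, had the largest fall. Its libraries were at 3240 and 3260 normalized counts in Δ*pkaA*, against values between 5432 and 8803 in the WT, where 2 pairs of reads fit the mean (log2 difference -1.09 ± 0.21, SE, adjusted p = 0.0031). AN6354, the most abundant of the group, had means of 5345 in Δ*pkaA* and 8109 in the WT and did not pass (adjusted p = 0.0596). AN10017, whose text gives positive regulation of a ubiquitin-specific protease and does not call it a protease, had 3054 and 3411 normalized counts in Δ*pkaA*, against 2037 and 2093 in the WT, the largest rise of the group among genes with an average of at least 100 (log2 difference 0.64 ± 0.10, SE, adjusted p = 0.0014). AN11218 was more than 2-fold apart at a low level, with 18.6 and 14.3 normalized counts in Δ*pkaA* and 6.7 and 9.37 in the WT, and did not pass (adjusted p = 0.0766). AN2507 had a mean of about 1 normalized count in each strain and was not tested.

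The deubiquitinase gene *creB* (AN3587) fell in the group of other ubiquitin texts because its text calls it a processing protease. CreB acts in carbon catabolite repression, by which the fungus shuts off genes for other carbon sources when glucose is present. It had 2898 and 3283 normalized counts in the Δ*pkaA* libraries, against 1412 and 1467 in the WT libraries. Both Δ*pkaA* libraries were about double both WT libraries, with a log2 difference of 1.10 ± 0.11 (SE, adjusted p = 0.00011, and at most 0.00384 with any library left out).

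The group of other ubiquitin texts held 17 genes, of which 6 were higher in Δ*pkaA*, 3 were lower and 8 did not pass, beside 31.2% higher and 29.8% lower over all genes. AN12299, whose orthologs bind ubiquitin and act in filamentous growth, N-linked glycosylation and protein processing, had 987 and 848 normalized counts in Δ*pkaA*, against 393 and 469 in the WT (limma, log2 difference 1.09 ± 0.14, SE, adjusted p = 0.000446). AN2240 and AN0770 share the words protein processing with it, as does *dscA*. Of these 4 genes, picked after their values were seen, 3 were higher in Δ*pkaA* and *dscA* did not pass. AN5668, with texts on metal ion transport and protein targeting to the vacuole, had a mean of 3949 in Δ*pkaA*, against 8950 in the WT. Its possible library values ran from 3118 to 4781 in Δ*pkaA* and from 6198 to 11702 in the WT and did not overlap, but its adjusted p of 0.0149 became 0.0732 without library 1 of Δ*pkaA* and 0.139 without library 2. The most abundant gene of the group, AN2304, a ubiquitin-binding gene, had means of 8895 in Δ*pkaA* and 12501 in the WT and did not pass (adjusted p = 0.121).

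A neighbouring pair in this group moved in opposite directions. AN10872 and AN10877 lie 101 bases apart on chromosome IV, and both carry the same text of a domain with a role in ubiquitin-dependent catabolism. AN10872 had 1055 and 1156 normalized counts in Δ*pkaA*, against 625 and 836 in the WT (limma, log2 difference 0.61 ± 0.15, SE, adjusted p = 0.0108). On the least favourable pair its adjusted p was 0.0532 without library 1 of Δ*pkaA* and 0.0939 without library 2, and its log2 ratio was 0.82 without library 2 of the WT. AN10877 had 2140 and 2410 in Δ*pkaA*, against 3814 and 4976 in the WT (log2 difference -0.94 ± 0.15, SE, adjusted p = 0.00115). The other 2 neighbouring pairs among the 130 genes were AN2072 with AN2073 and AN2212 with AN2213, and none of these 4 genes passed.

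The subunits of the proteasome itself had ratios close to 1. Subunits were read from the function text or from RefSeq gene symbols, which gave 14 genes of the 20S core and 10 of the 19S regulatory particle. A subunit named by neither would be among the other genes, so the 10 may be only part of the 19S particle. Their levels were high and close to each other. Per 1000 bases of the gene as listed, introns included, the averages of the 2 strains ran from 4481 to 8021 normalized counts in the 20S core and from 2550 to 6121 in the 19S particle, beside a median of 468 over all genes listed. The log2 ratio of Δ*pkaA* over WT ran from -0.36 to 0.22 in the 20S core, with a median of -0.15, and from -0.52 to 0.25 in the 19S particle, with a median of -0.27. Of the 24 subunits, 18 had a lower mean in Δ*pkaA*, and none of the 24 had means 2-fold apart. Among the 3032 genes with an average of 2000 to 20000, 1672 had a log2 ratio below 0. By the 2-fold limit, 312 of these 3032 were higher and 429 were lower.

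None of the 24 subunits passed limma on the least favourable pair, which called 31.2% of all genes higher and 29.8% lower. None was in the first test because all lay above its limits. An unadjusted p below 0.05 in this test was found for 1 of the 24, against 6114 of 9405 over all genes. The 1 was *pup1* (AN2085), a beta subunit, with means of 5311 in Δ*pkaA* and 6595 in the WT (adjusted p = 0.0591). With several pairs of reads for most subunits this test has little power for small differences, and a p above the threshold does not show equal levels. The lowest ratio in the 20S core was that of the beta-type subunit AN5793, with means of 7462 in Δ*pkaA* and 9578 in the WT (log2 difference -0.34 ± 0.26, SE, adjusted p = 0.302). The highest was that of *pre9* (AN1757), an alpha subunit, with means of 7462 in Δ*pkaA* and 6387 in the WT (log2 difference 0.20 ± 0.16, SE, adjusted p = 0.299). In the 19S particle the lid gene AN1922 had means of 5953 in Δ*pkaA* and 8547 in the WT (log2 difference -0.47 ± 0.30, SE, adjusted p = 0.204). The lid gene *rpnL* (AN3019) had the highest ratio, with means of 5662 in Δ*pkaA* and 4760 in the WT (log2 difference 0.25 ± 0.11, SE, adjusted p = 0.101). The ATPase gene AN4236 was the most abundant 19S gene by its text, with means of 9906 in Δ*pkaA* and 12339 in the WT (adjusted p = 0.267). AN10337, given a regulatory role in the proteasome complex by its text, was higher still, with means of 10712 in Δ*pkaA* and 14283 in the WT (adjusted p = 0.322).

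**Figure D4:**
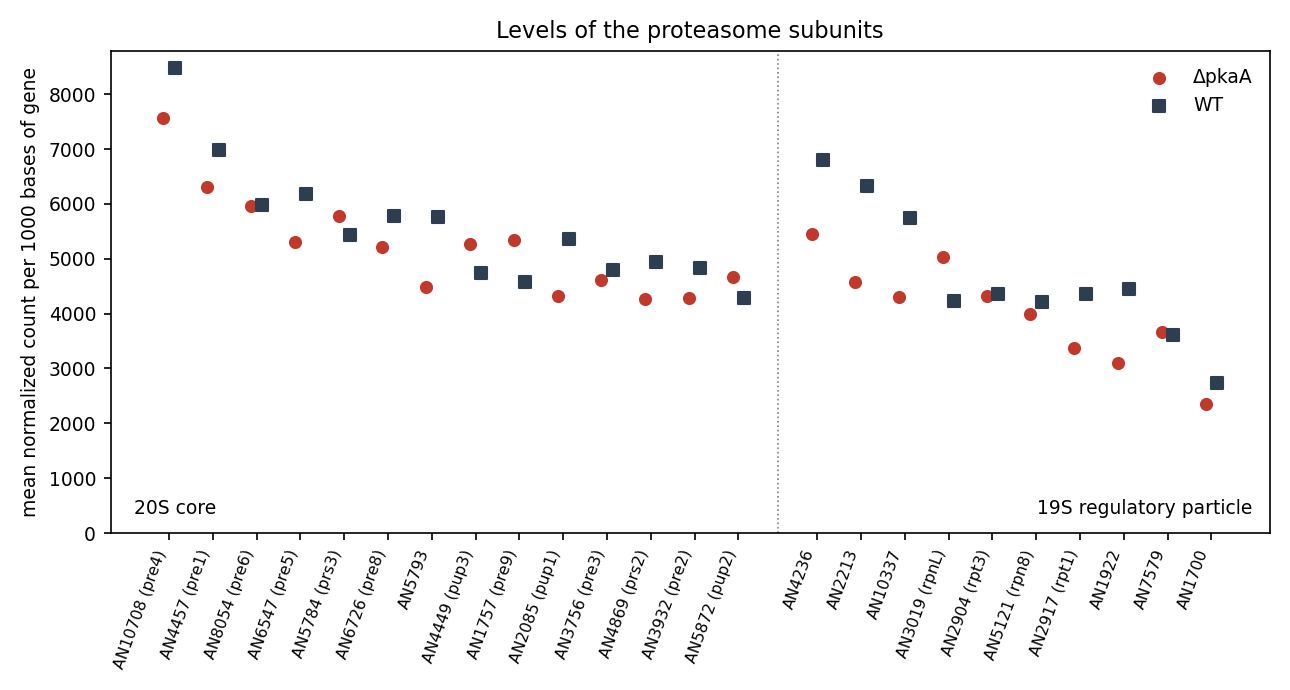
Mean normalized count per 1000 bases of gene (vertical, from 0) of the 14 genes of the 20S core and the 10 genes of the 19S regulatory particle, with Δ*pkaA* as red circles and WT as dark squares, in order of level within each particle. The strain means lie close together for each subunit, with Δ*pkaA* the lower in 18 of the 24. Among all 3032 genes with an average of 2000 to 20000, 1672 had a log2 ratio below 0.

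The spread among these subunits was smaller than among the other ubiquitin and proteasome genes, which may hold further subunits. It is given here without a test. The median size of the log2 ratio was 0.19 for the 24 subunits and 0.29 for the other 105 genes with an average of at least 10. Within 0.5 of 0 on the log2 scale were 23 of the 24 subunits (95.8%) and 76 of the 105 others (72.4%). Only AN1922 lay outside.

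**Figure D5:**
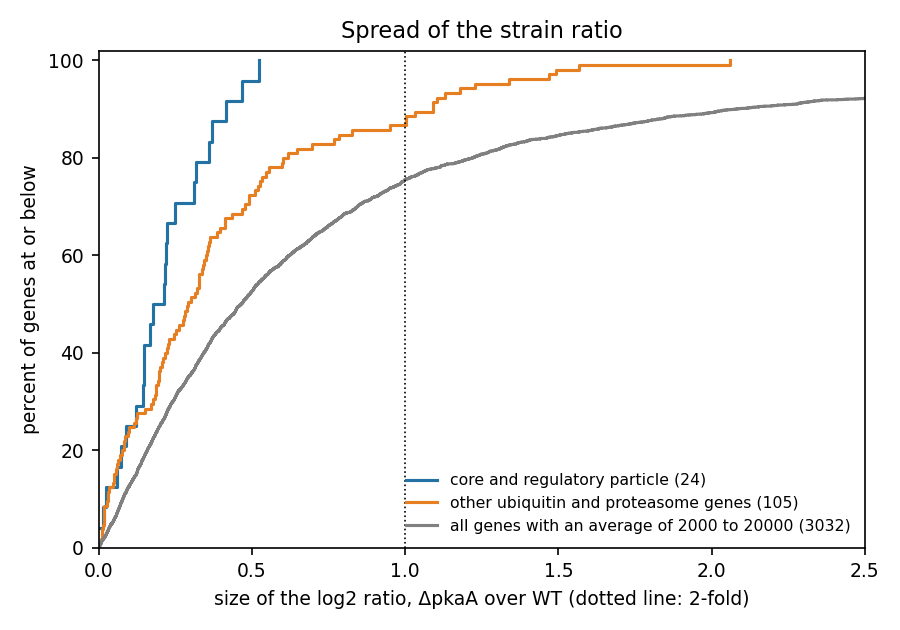
Percent of genes (vertical) whose log2 ratio of Δ*pkaA* over WT had at most the size on the horizontal axis, for the 24 proteasome subunits (blue), the other 105 ubiquitin and proteasome genes (orange) and all 3032 genes with an average of 2000 to 20000 (grey). The blue line reaches 100% at 0.52, before the dotted 2-fold line, while 72.4% of the orange genes lie within 0.5.

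There were 10 genes with texts on assembly or activation, which include 4 of the subunits above. Of the 10, 1 was higher in Δ*pkaA*, 1 was lower and 8 did not pass, beside 31.2% higher and 29.8% lower over all genes. The lower one, AN5607, encodes a proteasome-binding activator by its text. It had library values between 3770 and 4746 in Δ*pkaA*, against 6461 and 7329 in the WT (log2 difference -0.70 ± 0.14, SE, adjusted p = 0.00361). The higher one, AN1209, takes part in assembly of the regulatory particle and had 882 and 794 normalized counts in Δ*pkaA*, against 652 and 684 in the WT (limma, log2 difference 0.33 ± 0.11, SE, adjusted p = 0.0394). The call of AN1209 was lost without library 1 of Δ*pkaA* (adjusted p = 0.216 on the least favourable pair), without library 2 of Δ*pkaA* (0.0732) or library 1 of the WT (0.0877), and when each library was centred on its median. AN4492, a ubiquitin-specific protease by text and the most abundant gene of the group, had means of 9857 in Δ*pkaA* and 9314 in the WT (adjusted p = 0.682).

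Among the 21 genes with other proteasome texts, which include 6 of the subunits above, 2 were higher in Δ*pkaA*, 4 were lower and 15 did not pass. The 6 subunits are among the 15. These shares of calls were below those of all genes (31.2% higher and 29.8% lower). The 3 largest falls were those of AN10880, *fes1* and AN5721. AN10880, whose orthologs bind the proteasome and respond to arsenic-containing compounds, had 2045 and 1877 normalized counts in the Δ*pkaA* libraries, against values between 4250 and 6792 in the WT (log2 difference -1.45 ± 0.21, SE, adjusted p = 0.000702). The gene *fes1* (AN6543), which encodes a nucleotide exchange factor of the Hsp70 chaperone and helps pass misfolded proteins on for degradation, had 2148 and 1859 in Δ*pkaA*, against values between 4087 and 7021 in the WT (log2 difference -1.42 ± 0.23, SE, adjusted p = 0.00152). AN5721, given only a role in proteasome-mediated catabolism, had 1595 and 1651 in Δ*pkaA*, against 3634 and 3968 in the WT (limma, log2 difference -1.23 ± 0.10, SE, adjusted p = 5.07e-05). In all 3 genes both Δ*pkaA* libraries lay below both WT libraries, and each call held with any library left out.

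The largest rise of the 130 genes was that of AN10394, a component of the anaphase-promoting complex by its text. It had 248 and 236 normalized counts in the Δ*pkaA* libraries, against 98.6 and 92.7 in the WT libraries, a clear gap at a low level (limma, log2 difference 1.33 ± 0.17, SE, adjusted p = 0.000431). AN3111, with the same complex in its text, had 213 and 226 in Δ*pkaA*, against 134 and 152 in the WT (limma, log2 difference 0.62 ± 0.17, SE, adjusted p = 0.0151, but on the least favourable pair 0.0881 without library 1 of Δ*pkaA* and 0.126 without library 2). Of the 8 genes whose text names this complex, counted after their values were seen, 2 were higher, 2 were lower and 4 did not pass, which is near the shares of all genes (31.2% higher and 29.8% lower). The lower ones were the E2 gene AN5495 and AN4411, whose text also names proteasome localization (means of 4627 in Δ*pkaA* and 5620.3 in the WT, adjusted p = 0.049, but up to 0.264 without either library of Δ*pkaA* or library 2 of the WT).

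Related pathways outside the 130 genes were counted from words in their text, and their counts stand beside 31.2% higher and 29.8% lower over all genes. The COP9 signalosome, which removes the ubiquitin-like NEDD8 from cullin ligases, and the NEDD8 genes gave 2 higher and 1 lower of 12, with a median log2 ratio of 0.16. The higher ones were subunits 3 (AN5798) and 6 (AN2233) of the signalosome, with log2 ratios of 0.66 and 0.53. Its subunit 5, *csnE* (AN2129), which is among the 130 genes through its text, had means of 1251 in Δ*pkaA* and 1094 in the WT and did not pass (adjusted p = 0.128). The genes of SUMO attachment and removal gave 2 higher and 1 lower of 9, with a median of -0.07. Autophagy genes gave 4 higher and 5 lower of 23, with a median of 0.004.

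F-box proteins, the substrate receptors of cullin ligases, were counted in the same way. Of 35 such genes with an average of at least 10, 9 were higher in Δ*pkaA* and 11 were lower, with a median log2 ratio of -0.01. Means 2-fold apart were found for 5 on the higher side and 7 on the lower side. These shares were near those of all genes, and the median size of the log2 ratio was 0.47, against 0.60 over all genes. The extremes were AN0307, with means of 17.4 in Δ*pkaA* and 541 in the WT, and AN2353, with means of 780 in Δ*pkaA* and 68.9 in the WT. All 3 genes of the Cdc48 and ER-associated degradation list passed. *cdc48* (AN7254), the ATPase that pulls ubiquitinated proteins out of membranes and complexes, had means of 20442 in Δ*pkaA* and 28437 in the WT (adjusted p = 0.0455). AN0810 was higher, with means of 5239 in Δ*pkaA* and 2497 in the WT (adjusted p = 0.00014).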

How the data were processed

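RNA was sequenced from 2 samples each of Δ*pkaA* and the WT. The authors aligned reads with Bowtie2, counted them with HTSeq and used DESeq. The sources used here give neither versions nor the genome release. The deposited signal is, for each gene, its normalized count averaged by strain. The strain of each column came from the header of a supplementary table. The authors' fold changes, p-values and q-values, in the same table, were not used. A second deposited table, with 2 columns of means, was not used because the libraries behind 1 column are not stated.

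From the means, ratios were computed for genes with an average of at least 10. Reads per library were recovered to a tolerance of 5.5e-05, giving size factors of 1.02 and 0.982 (Δ*pkaA*) and 1.04 and 0.960 (WT). On simulated means, 7733 recovered values of Δ*pkaA* were right and 0 wrong, and in the WT 8582 were right and 8 wrong. All these values lay below the limits of recovery. limma (mean-variance trend, log2(value + 1), Benjamini-Hochberg) compared 2 against 2 libraries. In data simulated for its 6666 genes, of which 200 were changed, it recovered 179, among them 45 of 50 changed 2-fold, and made 5 false calls. The simulation gave every gene the same added spread and changed far fewer genes than the real test called (32.0% higher and 32.0% lower). Its numbers therefore do not carry over to these data. The second test, on the least favourable pair, assumes that the libraries of a strain differ by less than 0.35 (Δ*pkaA*) or 0.6 (WT) of their mean plus 6 times its square root. Above the levels of the first test it carries on that test's last variance estimate.

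The 130 genes, the lists and the tests were chosen with earlier results of these data known. Groups follow words in the function text. Genes named are, in each group, those with the highest and lowest ratio and highest average (average at least 100), those 2-fold apart with an average of at least 100, and the 5 largest limma rises and falls. None of the 130 had a mean under 10 in one strain and at least 100 in the other. Others are named to complete a list, a pathway or a neighbouring pair, after their values were seen. RefSeq symbols (assembly ASM1142v1, 126 of 130 matched) gave names and gene order only. Alternatives were other scalings, filters, pseudocounts, limits and left-out libraries. The tests ran in limma 3.58.1 under R 4.3.3, and all else in Python 3.11.15 with pandas 2.3.3, NumPy 2.4.6, SciPy 1.17.1 and, for plots, matplotlib 3.10.9. One gene of the list is not reported here by name.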

Additional observations from a re-analysis of the deposited data

How the results depend on the processing

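The count of ubiquitin and proteasome genes with means at least 2-fold apart, 5 higher and 9 lower in Δ*pkaA*, stayed within 1.5 times under both other scalings, under both filters and with a pseudocount of 1. With a pseudocount of 10 it was 3 higher. At a fold limit of 1.5 it was 9 higher and 14 lower (all genes: 2379 and 2432), and at a limit of 4 it was 0 higher and 1 lower (all genes: 803 and 642).

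The limma counts of 13 higher and 10 lower stayed within 1.5 times with pseudocounts of 0.5 and 10, with no filter, with an average of at least 50 and with centred libraries, though 4 of the 23 calls were lost with centring. At an adjusted p below 0.01 they were 6 higher and 5 lower (all genes: 1643 and 1638). With a 2-fold limit added they were 3 higher and 2 lower (all genes: 1119 and 1092). With each library left out in turn they ran between 6 and 13 higher and between 3 and 8 lower, the lowest without a library of Δ*pkaA*, and no call changed sign. On the least favourable pair, chosen after seeing the data, they were 19 higher and 25 lower, and with each library left out these ran between 10 and 21 higher and between 11 and 24 lower. With 1 library left in a strain, its spread was taken to be that of the other strain.

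Of the values of single named genes under the alternatives, 194 moved by less than the spread between libraries and 10 moved by more, and the one gene whose ratio changed sign, AN2416, passed no test.

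No paired analysis was possible because it is not known which recovered library carries which labelled replicate number. The planned count test on recovered reads was not run because too few abundant genes gave a single pair of reads. Depth limited AN2507 and AN11218, and the number of possible pairs limited the proteasome subunits.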
